A study of Mus musculus with 22 samples.

Results

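Secretory progenitors of the colonic crypt were compared with enteroendocrine cells (EECs), the hormone-secreting cells of the gut lining, across all genes counted. The libraries were chosen by their labels, 4 of SecPDG and 2 of EEC among the 22 libraries of sorted mouse colon cells, and each held counts for 24421 genes. All came from untreated wild-type male C57BL/6N mice, 5 to 7 weeks old. SecPDG cells were live cells lacking Cd31 and Cd45 and positive for Epcam, with a gate of Cd44hi, Cd24med and Ckitmed by their labels, although the study's text gives their Cd44 as medium. The study describes this gate as holding deep crypt secretory cells beside secretory progenitors, and perhaps some goblet cells. EECs were live cells with the same 3 lineage gates and Cd44low/- and Cd24+. Each library holds the cells of several mice and sorts pooled together, and libraries of 1 population came from independent mice. No cell was followed over time, so the comparison sets 1 sorted population beside another and both can be mixtures. The markers used as gates (Epcam, Cd44, Cd24a, Kit, Pecam1, Ptprc) were read as a check of the sort.

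Goblet cells and EECs descend from the same secretory progenitors, which are set aside from absorptive cells when Notch signalling is low and Atoh1 is made. Goblet cells fold and glycosylate large mucins in the endoplasmic reticulum (ER) and Golgi and pack them in mucus granules. EECs instead pass through a Neurog3-positive stage, leave the cell cycle and build dense core granules, in which granins pack peptide hormones and amines that are released when calcium enters the cell. In the colon the most frequent EECs are enterochromaffin cells, which make serotonin, and others make peptides such as glucagon-like peptide 1, peptide YY, neurotensin and somatostatin.

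The EEC libraries were less even in quality than those of SecPDG, and this bears on every value below. Counts on genes totalled 15314543 to 18628984 per SecPDG library, 4122122 in EEC 1 and 13132315 in EEC 2. The share of reads outside annotated genes was 40.9% to 46.8% in SecPDG, 89.7% in EEC 1 and 64.5% in EEC 2. Gene families that colon cells are not known to transcribe (olfactory, vomeronasal and trace amine receptors, hair keratin associated proteins and Rhox genes) took 45.9 to 148 CPM (counts scaled to a common library total) in SecPDG, 7067 in EEC 1 and 553 in EEC 2, which served as a measure of background. Of 13188 genes that averaged 50 normalized counts or more, 1559 had no read in SecPDG 1, 21 to 637 in the other SecPDG libraries, 155 in EEC 1 and 389 in EEC 2. Across 22781 genes the Spearman correlation was 0.91 to 0.945 between SecPDG libraries and 0.696 between the EEC libraries. Levels are given as normalized counts, which are counts divided by the library total and a TMM factor and brought to the mean library size. They are listed in the order SecPDG 1 to 4 and EEC 1 to 2. The SecPDG tables were deposited under another form of file name than the EEC tables, so a difference in handling that went with it cannot be told apart from the cell type.

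The sort was checked by its own markers and by markers of each population. Cd44 stood at 3865, 4176, 4418 and 4665 in SecPDG and 533 and 375 in EECs, and Kit at 6069, 9232, 6713 and 6782 and 667 and 654, both lower in EECs, whose labels gate Cd44 as low or absent and give no gate for Kit. Cd24a, 13693, 12494, 15442 and 12994 in SecPDG against 4066 and 15025, overlapped between the populations. Epcam was present in all 6 libraries, at 22826, 31251, 26824 and 30802 and 5845 and 17881. Pecam1 and Ptprc, which encode Cd31 and Cd45 and mark endothelial and immune cells, stood at 0 to 28.6 in SecPDG and at 311 to 733 in EECs, both higher in EECs, with an estimated background of 24.1% of the EEC mean for Ptprc. Of the 8 EEC markers, Chga, Chgb, Tph1, Neurod1, Pax4 and Insm1 were higher in EECs, while Scg2 and Pcsk1 did not pass the test. The test no longer called Pax4 without SecPDG 2, SecPDG 3, SecPDG 4, EEC 1 and EEC 2 (adjusted p 0.012 to 0.072). All 8 SecPDG markers (Muc2, Fcgbp, Tff3, Spdef, Atoh1, Reg4, Dll1, Kit) were lower in EECs, and Kit among them is also a gate of the SecPDG sort.

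Of 22781 genes tested in 1 fit of all 22 libraries with edgeR's quasi-likelihood test, 3419 (15.0%) were called, which required a p under 0.01 after Benjamini-Hochberg adjustment and, averaged over the 22 libraries, 50 normalized counts or more. Of these, 1516 (6.65% of genes tested) were higher and 1903 (8.35%) lower in EECs, and a gene said to have risen or fallen below is one of them. Both EEC libraries lay above all 4 SecPDG libraries for 1360 of the genes higher in EECs, and below them for 1898 of the genes lower in EECs. In the families that colon cells are not known to transcribe, they lay above for 211 of 1389 genes tested and below for 0. Lying above all SecPDG libraries thus does not by itself set a gene apart from background. The share over all genes tested is not given here. The smallest change called was 1.06 on the log2 scale. Among 13188 genes with a mean of at least 50, the median log2 fold change was -0.33, and with other scalings it was 0.01 (upper quartile), 0.30 (library totals), 0.35 (DESeq2 size factors) and 0.61 (TMM factors set from abundant genes alone). Genes higher in EECs thus made up 44.3% of calls as reported and 54.3%, 68.0%, 70.1% and 80.0% with those scalings. Without EEC 1 the test called 2776 genes, 960 of them higher, and without EEC 2 it called 5508, 1591 of them higher. The number higher was 978 without SecPDG 3 and 963 without SecPDG 4. A fit of the 6 libraries alone called 940 genes, 513 of them higher. In the reported fit the spread of each gene was estimated over all 22 libraries, and the EEC libraries set only part of it. An SE or adjusted p here is therefore no measure of the variation between EEC libraries alone. With 1 EEC library left, that library is assumed wholly to vary as the other groups do. Counts under other scalings are given below as the range over these 4 scalings and DESeq2's own test, where one of them moved a count by over 1.5 times. These libraries measure shares of RNA, so fewer cells of a type and less RNA per cell cannot be told apart.

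**Figure D1:**
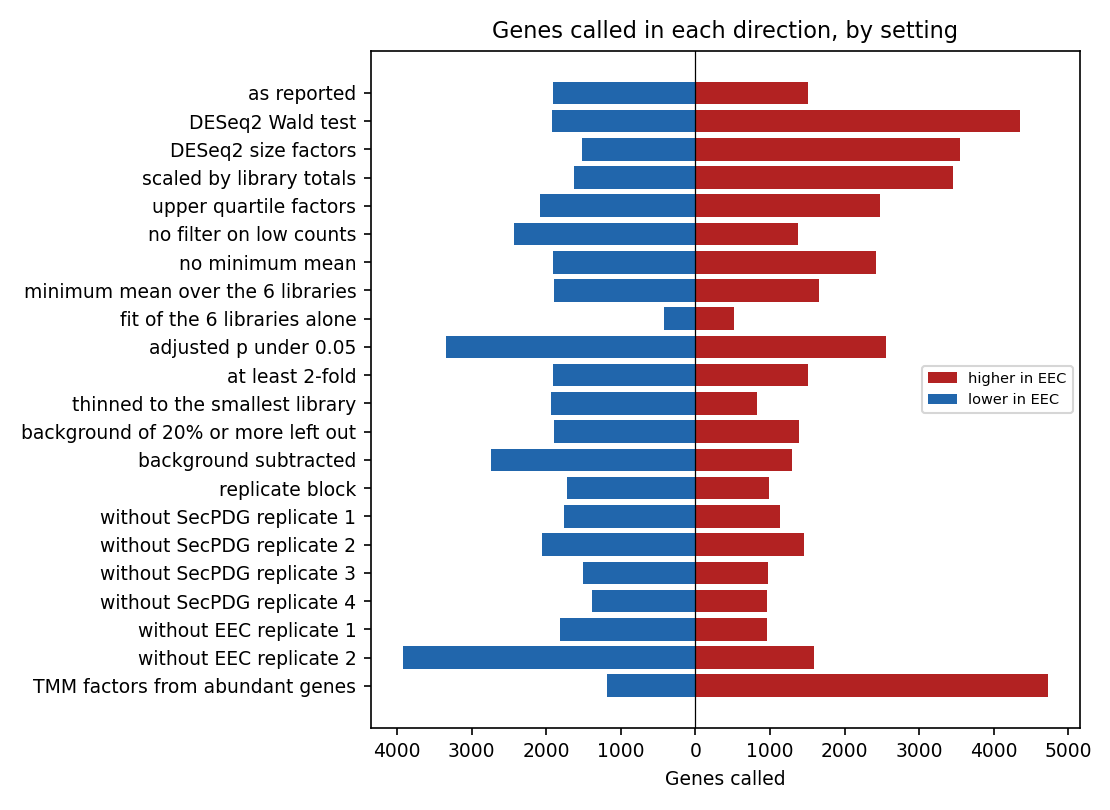
Number of genes called higher in EEC (red, to the right) and lower in EEC (blue, to the left) as reported and under each alternative setting. As reported 1516 genes were higher and 1903 lower, the count of higher genes ran from 513 to 4724, and the count of lower genes from 427 to 3917.

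Genes were then described by function, in 26 lists, with the fitted change of every member and the list's median. A median needs 3 values beside it. Over 13188 genes with a mean of at least 50 it was -0.33. That is the nearest measure for lists whose members all reach this mean, such as mitosis and DNA replication. Over all genes tested it was 0.77, and over the untranscribed families it was 3.88 (4.20 with genes at 0 in a group set to their bound), where none of 1389 genes tested was called (2 to 17, all higher, under other scalings). Without EEC 1 the median of the untranscribed families was 0.00. Lists rich in genes of low count are therefore described by the members called, and their median is also given without each EEC library. Counts of members called are to be set against the share over genes with a mean of at least 50, 1516 higher and 1903 lower of 13188. The fit of the 6 libraries alone called fewer members in most lists, while granule cargo kept its 7 genes higher. For several lists the count is also given in that fit. It is further given with every library thinned at random to the total of the smallest, EEC 1.

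**Figure D2:**
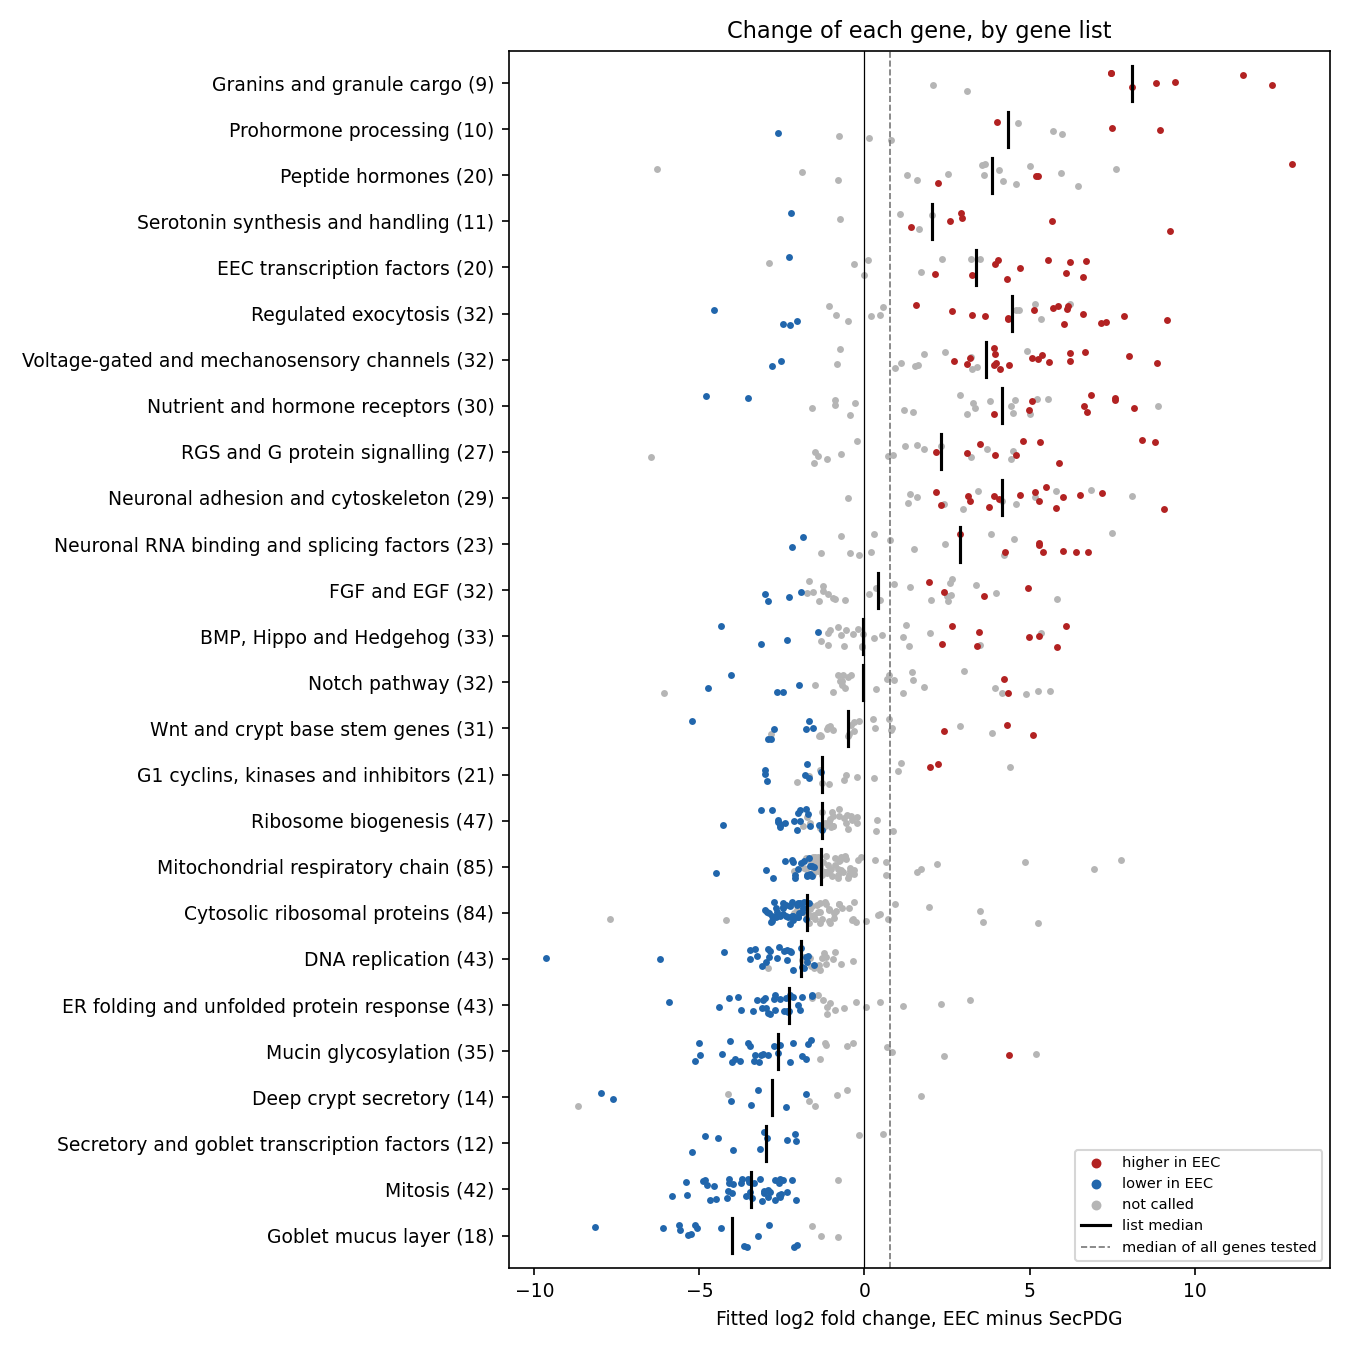
Fitted log2 fold change of EEC minus SecPDG for every tested member of 26 gene lists, 1 point per gene, with the number tested in parentheses. Red points were called higher in EEC, blue points lower and grey points neither, a black bar is the list's median, and the dashed line is the median of all genes tested (0.77), and a gene at 0 in a group is drawn at its fitted value, which is no bound. Granule, transmitter release and channel genes lie to the right, with list medians of up to 8.10, and goblet, ER and cell cycle genes to the left, with list medians down to -4.00. Over genes with a mean of at least 50 the median was -0.33, which is not drawn.

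Granins, the acidic proteins that condense in dense core granules, had the largest median change of the 26 lists. Of 9 granule cargo genes, 7 were higher in EECs and none lower, with a median log2 fold change of 8.10 (8.55 without EEC 1 and 7.03 without EEC 2). Chgb (chromogranin B; chromosome 2, 132781278-132795079 on mm10) rose from 4107, 1368, 4264 and 4051 in SecPDG to 361977 and 869126 in EECs (log2 fold change 7.48, SE 0.96, adjusted p 7.79e-07). Chga (chromogranin A) rose from 1142, 501, 1254 and 1147 to 207142 and 717075 (log2 fold change 8.84, SE 1.04, adjusted p 2.01e-07). Both EEC libraries exceeded every SecPDG library, and SecPDG 2 was the lowest of all 6 for both genes. Pcsk1n, which encodes an inhibitor of prohormone convertase 1, stood at 0, 2.49, 2.53 and 12.7 in SecPDG and 5150.4 and 20638 in EECs (log2 fold change 11.47, SE 0.99, adjusted p 1.32e-09). Vgf, a granin-like precursor of neuropeptides, had 1 read in the 4 SecPDG libraries together and 826 and 3109 normalized counts in EECs, a ratio of 8922 with a 95% counting interval from 1600 to 352513. Resp18, Scg3 and Scg5 rose as well, by 7.45 to 9.40 on the log2 scale. Scg2 (secretogranin II), which is also a granin, was read in 1 EEC library only, at 101 and 0, against 0, 1.24, 13.5 and 7.83 in SecPDG, and Scgn (secretagogin, a calcium sensor) stood at 50.6 and 44.9 against 0, 12.4, 4.21 and 28.4. Neither passed the test. Per kilobase of exon, the mean EEC level was 224654 normalized counts for Chgb, 167674 for Chga and 11163 for Tph1.

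Promoters of several granule genes are known for the cAMP response element (CRE), through which Creb family factors act. Its palindrome TGACGTCA was searched in RefSeq promoters of GRCm38.p6, from 250 bases before to 50 after each gene start. These starts are those of RefSeq, and that of Chgb lies inside the span given above, which is from GENCODE. It was present for 2 of 8 granule cargo genes with a promoter in the table, 1 of 7 prohormone processing genes, 1 of 15 EEC transcription factor genes and none of 21 exocytosis genes, against 2.03% of 27025 genes. It was also present for 1 of 33 ER folding genes (Ppp1r15a, element from base -12, not called) and 0 of 10 goblet mucus genes. The windows of the granule cargo, prohormone processing and EEC transcription factor genes are shown, with the element in capitals. They belong to genes that were called (Chgb, Pax6) and genes that were not (Scg2, Pcsk1). They sit at nearly the same distance from the start, unlike that of Ppp1r15a.
Chgb, chr2:132781559-132781588, plus strand, element from base -72: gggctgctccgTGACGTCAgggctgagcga
Scg2, chr1:79440076-79440105, minus strand, element from base -68: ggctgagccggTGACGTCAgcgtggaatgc
Pcsk1, chr13:75089768-75089797, plus strand, element from base -78: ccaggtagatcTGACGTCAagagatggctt
Pax6, chr2:105668809-105668838, plus strand, element from base -76: tctggccgccgTGACGTCAtccgcgcccgg
A match describes these letters in this window and not the binding of any factor.

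Prohormones are cut, trimmed and amidated inside the granule. Of 10 genes for these steps, 3 were higher and 1 lower, with a median log2 fold change of 4.34 (1.97 without EEC 1 and 4.20 without EEC 2). Cpe (carboxypeptidase E, which trims basic residues after cleavage) stood at 0, 27.4, 20.2 and 49.0 in SecPDG and 1858 and 6834 in EECs (log2 fold change 7.49, SE 1.00, adjusted p 1.41e-06). Ptprn (IA-2, a protein of the granule membrane) stood at 3.78, 28.6, 3.37 and 14.7 and 1414 and 10529.5 (log2 fold change 8.94, SE 0.92, adjusted p 2.09e-08). Pam, which amidates peptide ends, rose from 702, 373, 719 and 595 to 4474 and 14906 (log2 fold change 4.02, SE 0.46, adjusted p 1.10e-07). Pcsk1, the main prohormone convertase of EECs, was already present in SecPDG at 1004, 749.7, 758 and 794 and stood at 723 and 2137 in EECs, groups that overlapped (log2 fold change 0.79, adjusted p 0.13). Pcsk2 stood at 255 and 30.3 against 0, 14.9, 1.69 and 5.88 and did not pass. Cpd, a carboxypeptidase of the trans-Golgi network, was lower, 13458, 20731, 12522 and 12984 against 694 and 4191 (log2 fold change -2.61, SE 0.58, adjusted p 0.0012). The counts higher and lower for the list were 3 and 2 without EEC 2. Other scalings left 5 to 7 higher and 1 lower.

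Serotonin is made from tryptophan and loaded into vesicles by amine transporters. Of 11 genes of serotonin synthesis and handling, 6 were higher and 1 lower, with a median log2 fold change of 2.05 (2.37 without EEC 1 and 0.62 without EEC 2). Tph1 (tryptophan hydroxylase 1, the rate-limiting enzyme; chromosome 7, 46644641-46672537 on mm10) rose from 156, 44.8, 149.9 and 103 to 23482 and 114311 (log2 fold change 9.24, SE 0.91, adjusted p 1.18e-08), which made it 1 of the 12 genes with the largest fitted increase. Slc18a1 (the vesicular monoamine transporter VMAT1) rose from 117, 98.2, 120.5 and 145 to 2516 and 9702 (log2 fold change 5.67, SE 0.51, adjusted p 2.76e-09), and Ddc, which decarboxylates 5-hydroxytryptophan to serotonin, from 261, 309.6, 374 and 458 to 1012 and 4395 (log2 fold change 2.95, SE 0.42, adjusted p 3.33e-06). In all 3 the EEC libraries lay above every SecPDG library. Of the genes that make or recycle the cofactor tetrahydrobiopterin, Gch1 and Qdpr were higher (2.91 and 1.42 on the log2 scale) and Spr was lower (-2.24). Slc18a2 (VMAT2) was higher by 2.58 from a low level, 35.0, 79.6, 42.1 and 79.3 against 284 and 419.8. The serotonin reuptake transporter Slc6a4 stood at 44.4, 44.8, 43.8 and 42.1 and 302 and 63.1 (adjusted p 0.014). Maoa, which degrades serotonin, differed between the EEC libraries, 347 and 9708 against 1549, 1263, 1828 and 1796 in SecPDG. Higher and lower members of the list came to 7 and 0 without EEC 1 and 4 and 2 without EEC 2. Leaving out 1 library ended the call of Gch1 without EEC 2 (adjusted p 0.49), Slc18a2 without SecPDG 3 and EEC 2 (adjusted p 0.011 to 0.015), Qdpr without SecPDG 1, SecPDG 2, SecPDG 3 and EEC 2 (adjusted p 0.014 to 0.7) and Spr without EEC 1 (adjusted p 0.011).

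Of 20 hormone genes, 4 rose and none fell, 9 had a mean of at least 50, and 5 had no read in EEC 2. Sct (secretin), the hormone with the highest normalized count, was present in SecPDG at 1302, 2755, 1541 and 2239.7 and rose to 5948 and 12404 in EECs (log2 fold change 2.23, SE 0.55, adjusted p 0.0027). Iapp (islet amyloid polypeptide, or amylin) had no read in any SecPDG library and 663 and 1332 normalized counts in EECs, at least 1354-fold higher against a floor of 3 counts over the group. Sst (somatostatin) stood at 14.2, 4.97, 0 and 29.4 and 385 and 511 (log2 fold change 5.19, SE 1.27, adjusted p 0.0026), and Calca, which encodes calcitonin gene-related peptide, at 0, 7.46, 0 and 6.86 and 114 and 161 (log2 fold change 5.25, SE 1.37, adjusted p 0.0044). Tac1, the precursor of substance P, stood at 90.4 and 807 in EECs and 2.84, 23.6, 45.5 and 25.5 in SecPDG (adjusted p 0.014). Leaving out 1 library ended the call of Iapp without EEC 2 (adjusted p 6.65e-05, with the mean under 50), Sct without SecPDG 1, SecPDG 3 and EEC 2 (adjusted p 0.011 to 0.032) and Calca without SecPDG 3 (adjusted p 0.014). The counts higher and lower for the list were 3 and 1 without SecPDG 1, 4 and 1 without SecPDG 2, 2 and 1 without SecPDG 3, 5 and 1 without EEC 1 and 2 and 0 without EEC 2. The other scalings gave 4 to 6 higher and 0 to 1 lower. With counts thinned to the smallest library 1 was higher and 1 lower, and in the fit of the 6 libraries alone 2 and 0.

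Hormones of colonic L cells were read at low levels in the EEC libraries. Gcg (proglucagon, the precursor of glucagon-like peptide 1) was read at 0 and 2.43 in EEC 1 and 2 and at 4.73, 8.70, 0 and 466 in SecPDG, so SecPDG 4 held most of its reads. The same files give Gcg at 1159 to 4875 in the 5 libraries sorted as enterocytes. Nts (neurotensin) stood at 3.62 and 155 in EECs and 705 to 2211 in the enterocyte libraries, and Pyy (peptide YY) at 32.5 and 88.6 and 172 to 947. Insl5 stood at 65.1 and 0 in EECs and 31.2 to 196 in the enterocyte libraries, and Cck, a hormone of other EECs, at 186 and 0 and 50.8 to 183. None of the 5 was called between EECs and SecPDG, and the difference from the enterocyte libraries was not tested.

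Of 20 transcription factors of the endocrine lineage, 11 were higher and 1 lower, with a median log2 fold change of 3.36 (3.61 without EEC 1 and 2.40 without EEC 2). Neurod1, which acts downstream of Neurog3, rose from 32.1, 67.1, 53.1 and 187 to 4219 and 13397 (log2 fold change 6.70, SE 0.63, adjusted p 5.61e-09). Lmx1a, a factor of serotonin cells, rose from 79.4, 38.5, 32.0 and 62.7 to 1322 and 6067 (log2 fold change 6.11, SE 0.70, adjusted p 1.10e-07), Myt1 from 107, 95.7, 18.5 and 89.1 to 2898 and 8657 (log2 fold change 6.22, SE 0.59, adjusted p 5.69e-09) and Pax6 from 0.94, 14.9, 0 and 11.8 to 765 and 571 (log2 fold change 6.61, SE 1.17, adjusted p 8.27e-05). None of these 4 overlapped between the groups. Insm1, a repressor that marks endocrine commitment, was already at 254, 203, 281 and 226 in SecPDG and rose to 1085 and 6891 (log2 fold change 4.05, SE 0.67, adjusted p 3.80e-05). Neurog3 itself, the factor that starts the endocrine fate, was read at 159, 131, 129.7 and 247 in SecPDG and 45.2 and 0 in EECs, non-overlapping but short of the threshold (adjusted p 0.11). Foxa1 overlapped, 4588, 4293, 4061 and 3931 against 2397 and 6671, and Foxa2 fell from 1459, 1258, 1684 and 1129 to 128 and 431 (log2 fold change -2.30, SE 0.48, adjusted p 5.96e-04). Rfx6 and St18 rose by 4.71 and 3.96. Thinned to the smallest library, 7 of the list were higher and 1 lower, and in the fit of the 6 libraries alone 9 and 0. No call was made for Insm1 without EEC 2 (adjusted p 0.032). Members of the list higher and lower numbered 7 and 1 without SecPDG 3 or SecPDG 4, 8 and 2 without EEC 1 and 6 and 1 without EEC 2.

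**Figure D3:**
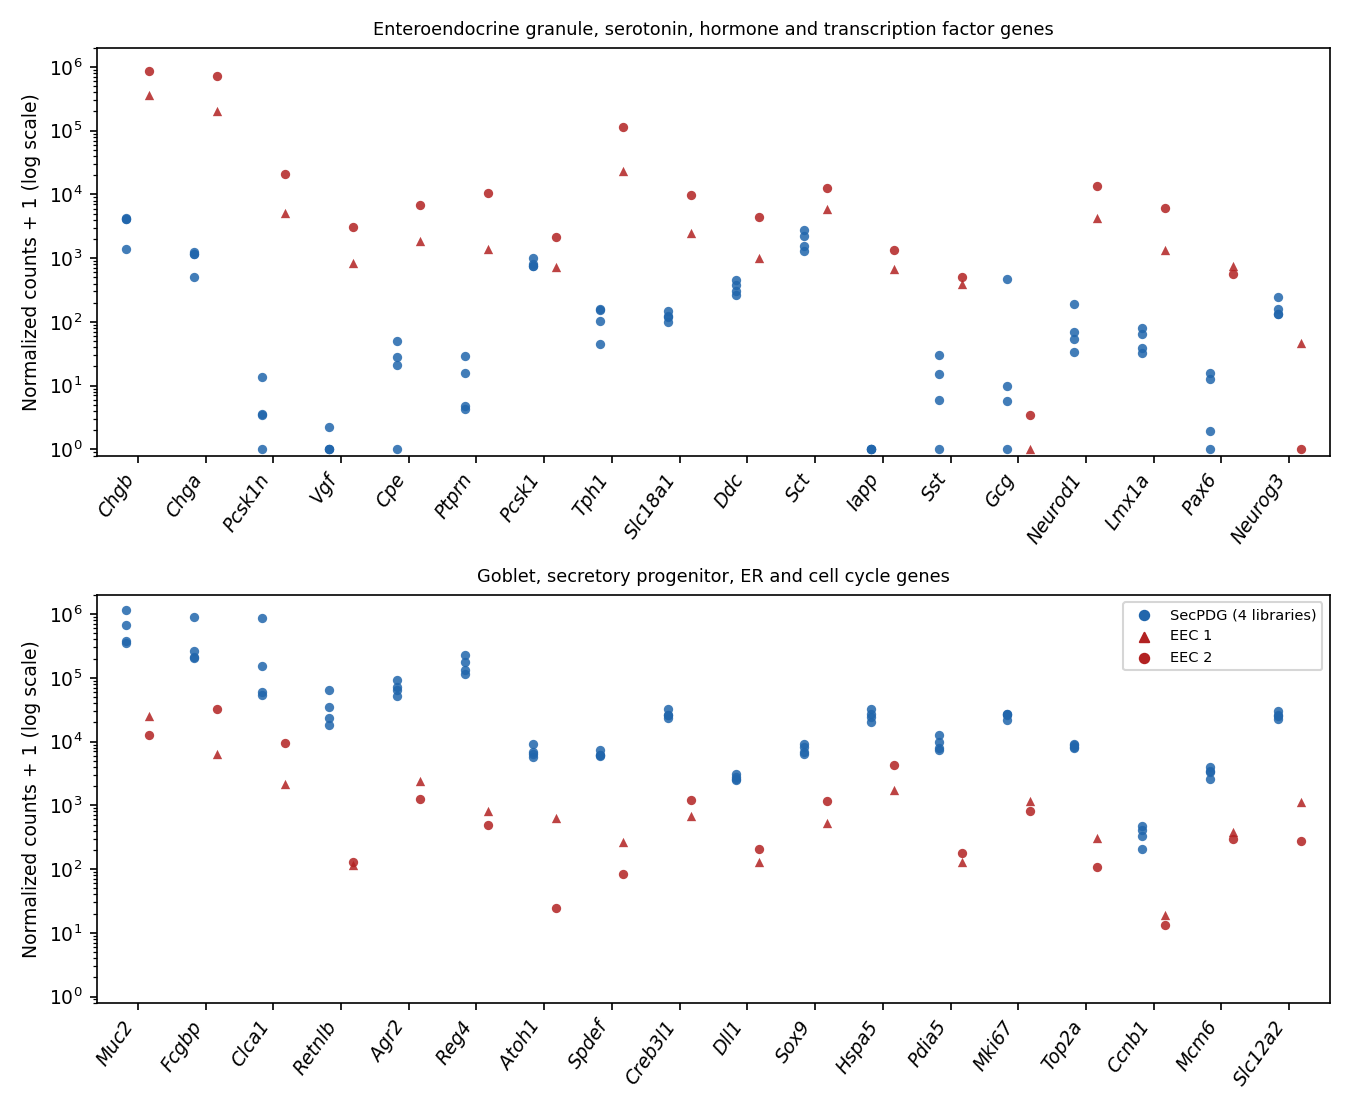
Normalized counts plus 1, on a log scale, of 36 genes in each of the 6 libraries, with SecPDG in blue and EEC in red (triangle for EEC 1, circle for EEC 2). In the upper panel Chgb and Chga reach 207142 to 869126 in EECs while Pcsk1 overlaps and Gcg is at 0 and 2.43, and in the lower panel both EEC libraries lie below all 4 SecPDG libraries for every gene drawn.

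Of 32 genes of calcium-triggered release, 17 were higher and 4 lower, with a median log2 fold change of 4.46 (3.13 without EEC 1 and 3.62 without EEC 2). The neuronal SNARE Snap25 rose from 47.3, 12.4, 0 and 12.7 to 1416 and 4354 (log2 fold change 7.31, SE 0.81, adjusted p 7.25e-08), and its partner Stx1a from 0, 22.4, 7.58 and 9.79 to 880.4 and 1065 (log2 fold change 6.62, SE 0.95, adjusted p 4.50e-06). Cadps, which primes dense core granules, stood at 0, 43.5, 7.58 and 9.79 and 1976 and 4764 (log2 fold change 7.85, SE 0.81, adjusted p 2.23e-08), and the small GTPase Rab3b at 0, 1.24, 0 and 2.94 and 405 and 909 (log2 fold change 9.18, SE 1.69, adjusted p 1.47e-04). Rimbp2, Cplx2, Unc13a and Rab3c rose by 3.26 to 6.16 on the log2 scale. In each of these 8 genes both EEC libraries lay above all 4 SecPDG libraries. A mean of at least 50 was reached by 28 of the list. The number that fell, 4, is near the share over all genes with such a mean, 1903 of 13188. These 4 genes belong to the same families. Rab3d, known from zymogen and mucus granules, fell from 7969.6, 12336, 8602 and 8604 to 824 and 2536 (log2 fold change -2.48, SE 0.52, adjusted p 6.53e-04), Rab27b from 3021, 5059, 2958 and 3385 to 615 and 1115 (log2 fold change -2.06, SE 0.48, adjusted p 0.0017), Cadps2 from 1375, 2179.5, 1861 and 1834 to 107 and 655 (log2 fold change -2.24, SE 0.50, adjusted p 0.0012), and Sytl4, an effector of Rab27, from 494, 905, 1017 and 706 to 59.7 and 8.49 (log2 fold change -4.57, SE 0.66, adjusted p 4.38e-06). The other 11 did not pass the test. With counts thinned to the smallest library 11 were higher and 4 lower, and in the fit of the 6 libraries alone 15 and 2.

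Endocrine cells fire action potentials, for which they need voltage-gated channels. Of 32 voltage-gated and mechanosensory channel genes, 18 were higher and 2 lower, with a median log2 fold change of 3.67 (2.99 without EEC 1 and 3.81 without EEC 2). Cacna1a (the P/Q-type calcium channel) rose from 173, 267, 536 and 379 to 1839 and 8552 (log2 fold change 3.94, SE 0.46, adjusted p 1.67e-07) and Cacna1h (a T-type calcium channel) from 390.4, 361, 249 and 379 to 1367 and 9304 (log2 fold change 3.95, SE 0.57, adjusted p 4.33e-06). Cacna2d1, an auxiliary subunit, rose from 90.8, 84.5, 30.3 and 117 to 1607 and 6107 (log2 fold change 5.58, SE 0.48, adjusted p 1.32e-09), while its relative Cacna2d2 fell from 535, 1414, 569 and 766 to 195 and 88.6 (log2 fold change -2.54, SE 0.58, adjusted p 0.0016). The sodium channel Scn3a rose from 0, 59.7, 25.3 and 51.9 to 1014 and 5994 (log2 fold change 6.69, SE 1.05, adjusted p 1.68e-05). Piezo2, the mechanically gated channel of enterochromaffin cells, rose from 8.51, 59.7, 11.8 and 17.6 to 1757 and 1807 (log2 fold change 6.22, SE 0.83, adjusted p 1.38e-06), nearly the same level in both EEC libraries. Kcnma1, the large conductance calcium-activated potassium channel, fell from 3574, 4646, 3142 and 2979 to 582 and 451 (log2 fold change -2.80, SE 0.53, adjusted p 1.89e-04). Trpa1, the irritant receptor known from enterochromaffin cells, was barely read, at 36.2 and 6.07 in EECs, below its estimated background, and 0, 27.4, 0 and 0 in SecPDG. The call was lost for Cacna2d2 without EEC 2 (adjusted p 0.017). Across other scalings, 21 to 23 were higher and 0 to 2 lower. Thinned to the smallest library, 14 were higher and 2 lower, and in the fit of the 6 libraries alone 11 and 1.

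Receptors through which EECs sense nutrients and other hormones were low in count. Of 30 receptor genes, 9 were higher and 2 lower, with a median log2 fold change of 4.18 (1.59 without EEC 1 and 4.27 without EEC 2), and 7 had no read in EEC 2. Glp1r (the receptor of glucagon-like peptide 1) rose from 0, 17.4, 0 and 7.83 to 759 and 2725 (log2 fold change 8.17, SE 0.94, adjusted p 1.86e-07). The somatostatin receptor Sstr1 rose from 2.84, 7.46, 14.3 and 28.4 to 772 and 4361 (log2 fold change 7.57, SE 0.93, adjusted p 3.89e-07). Sstr5, of the same family, stood at 0, 9.95, 0 and 1.96 and 304 and 392 (log2 fold change 6.88, SE 1.59, adjusted p 0.0018). No SecPDG library reached either EEC library in these 3 receptors. Galr1 (a galanin receptor) stood at 0, 28.6, 0.84 and 0.98 and 432 and 2362 (log2 fold change 7.59, SE 1.15, adjusted p 1.24e-05), Casr (the calcium-sensing receptor) at 0, 11.2, 0 and 6.86 and 521 and 431 (log2 fold change 6.74, SE 1.49, adjusted p 0.0011) and Olfr78, an olfactory receptor gene that answers to short chain fatty acids, at 0, 9.95, 5.90 and 12.7 and 468 and 971 (log2 fold change 6.64, SE 1.17, adjusted p 9.37e-05). Among free fatty acid receptors, Ffar2, for short chain fatty acids, stood at 466 and 698 against 1277, 781, 1120.3 and 1172 (adjusted p 0.12), and Ffar4, a long chain fatty acid receptor, fell from 723, 562, 847 and 666 to 52.4 and 0 (log2 fold change -4.81, SE 0.78, adjusted p 2.54e-05). Ptger4, a prostaglandin E2 receptor, fell from 2303, 2868, 2626 and 2526 to 407 and 47.3 (log2 fold change -3.52, SE 0.55, adjusted p 1.53e-05). The test no longer called Sstr5 without EEC 1 and EEC 2 (adjusted p 0.0035, with the mean under 50). Under other scalings 10 to 14 were higher and 2 lower. With counts thinned to the smallest library 4 were higher and 2 lower, and in the fit of the 6 libraries alone 6 and 0.

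G protein signals are set by the subunits present and by RGS proteins, which end them. Of 27 RGS and G protein genes, 10 were higher and none lower, with a median log2 fold change of 2.31 (1.55 without EEC 1 and 2.76 without EEC 2). Rgs4, which shortens Gi and Gq signals, stood at 0, 3.73, 0.84 and 8.81 in SecPDG and 456 and 2558 in EECs (log2 fold change 8.79, SE 1.12, adjusted p 8.58e-07). Gng4 stood at 0, 3.73, 0 and 7.83 and 470 and 1542 (log2 fold change 8.42, SE 1.17, adjusted p 2.76e-06), and Gnao1, the alpha subunit Go that is common in neurons and endocrine cells, rose from 82.2, 31.1, 59.8 and 92.1 to 832 and 4470 (log2 fold change 5.31, SE 0.74, adjusted p 2.56e-06). Gnas (Gs) stood at 9901, 14914, 11659 and 11785 and 3156 and 7774 and did not pass (adjusted p 0.041). Of those that rose, Gnat3 and Rgs13 are best known from tuft cells, whose markers are given below. No call was made for Rgs13 without EEC 2 (adjusted p 0.025). Members of the list higher and lower numbered 7 and 3 without EEC 1 and 8 and 1 without EEC 2. Other scalings left 10 to 14 higher and 0 to 1 lower. Thinned to the smallest library, 5 were higher and 0 lower, and in the fit of the 6 libraries alone 4 and 0.

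Several gene groups best known from neurons differed. Of 29 genes of neuronal adhesion and cytoskeleton, 16 were higher and none lower, with a median of 4.17 (3.15 without EEC 1 and 4.56 without EEC 2), and for 3 of the 16 the estimated background was at least 20% of the EEC mean. Map1b, a microtubule-associated protein, rose from 50.1, 41.0, 173 and 77.4 to 8050.1 and 17068 (log2 fold change 7.19, SE 0.66, adjusted p 3.24e-09), and Kif1a, the kinesin that carries dense core and synaptic vesicles, from 0, 29.8, 0 and 15.7 to 3124 and 8493 (log2 fold change 9.07, SE 1.06, adjusted p 1.58e-07). The neurofilament gene Nefm rose from 0, 41.0, 62.3 and 24.5 to 1180.5 and 1746, and Nlgn2 (neuroligin 2, of inhibitory synapses) from 35.0, 34.8, 56.4 and 64.6 to 372 and 1249.8. Of 23 RNA-binding and splicing factors, 8 were higher and 2 lower. Celf3 rose from 9.45, 87.0, 9.27 and 72.5 to 2305 and 7312 (log2 fold change 6.77, SE 0.69, adjusted p 1.90e-08), Elavl3 from 0, 14.9, 0 and 7.83 to 439 and 529 (log2 fold change 6.42, SE 1.45, adjusted p 0.0014), and Msi1 from 111, 117, 34.5 and 125 to 517 and 919 (log2 fold change 2.89, SE 0.53, adjusted p 1.47e-04). The epithelial splicing factor Esrp1 fell from 4689, 6759, 5020.4 and 6196 to 443 and 2044 (log2 fold change -2.19, SE 0.51, adjusted p 0.0019). Ptbp1, a splicing repressor that is lost in neurons, fell from 4969.9, 6270.1, 5079 and 5319 to 701 and 2288. The call was lost for Ptbp1 without EEC 1 (adjusted p 0.016). The counts higher and lower for the adhesion and cytoskeleton genes were 17 and 1 without EEC 2. Higher and lower members of RNA-binding factors came to 6 and 1 without EEC 1 and 7 and 5 without EEC 2. The other scalings gave 8 to 13 of the RNA-binding factors higher and 2 lower. Thinned to the smallest library, 7 of the adhesion and cytoskeleton genes and 2 of the RNA-binding factors were higher. In the fit of the 6 libraries alone these numbers were 10 and 2.

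Markers of enteric neurons and glia moved with these genes, and their part in the result was not tested. Their sum over 9 genes was 0.94 to 148 in SecPDG, 3211 in EEC 1 and 4420.2 in EEC 2, and 4 of the 9 (Ret, Chat, Nos1, Gfap) were higher. Ret, which endocrine cells can also express, stood at 1139 and 3974, most of the sum in EEC 2 but not in EEC 1. Of the markers listed for neurons, Chat stood at 607 and 228 and Nos1 at 506 and 155, and which cells held them was not tested. Of the genes that define glia, Gfap stood at 405 and 10.9 in EEC 1 and 2, Sox10 at 157 and 0 and S100b at 57.9 and 0. The test no longer called Gfap without SecPDG 1, SecPDG 3, SecPDG 4 and EEC 1 (adjusted p 0.012 to 0.82).

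The goblet programme was far lower in EECs. Of 18 genes of the mucus layer, 15 fell and none rose, with a median log2 fold change of -4.00. A fit of the 6 libraries alone called 8 of them lower. Muc2, the mucin that forms the colonic mucus gel, fell from 374475, 1142530, 357958 and 669289 to 24908 and 12773 (log2 fold change -5.08, SE 1.11, adjusted p 9.49e-04). Fcgbp, which is cross-linked to Muc2, fell from 212303, 912578, 205824 and 262331 to 6378 and 32896 (log2 fold change -4.34, SE 1.00, adjusted p 0.0016), and Retnlb, a bactericidal resistin-like protein, from 18147, 64908, 23159.5 and 34422 to 116 and 129.8 (log2 fold change -8.16, SE 1.15, adjusted p 3.21e-06). Agr2, the disulfide isomerase that assembles Muc2, fell from 51201, 70915, 65158 and 91561 to 2399 and 1245 (log2 fold change -5.26, SE 0.87, adjusted p 3.58e-05), and Klk1 and Bcas1 by 5.15 to 5.58. No SecPDG library was as low as either EEC library in these 6 genes. Clca1 stood at 53995, 856242, 59878 and 155435 in SecPDG, where SecPDG 2 was highest, and 2164 and 9396 in EECs. Zg16, Muc13 and Tgm2 did not pass, and Muc13, a membrane mucin, stood at 2249 and 14784 against 21736, 33856, 23509.9 and 24384. No call was made for Clca1 without EEC 1 (adjusted p 0.016).

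Deep crypt secretory genes and the factors that drive the secretory fate fell with the mucus genes. Of 14 deep crypt secretory genes, 7 fell and none rose (median -2.81). Reg4, the marker of deep crypt secretory cells, fell from 113396, 231644, 135028 and 180476 to 819 and 483 (log2 fold change -7.99, SE 1.17, adjusted p 5.77e-06), and Mptx1, a pentraxin, from 23767, 28826, 28523 and 28049.5 to 192 and 89.8 (log2 fold change -7.61, SE 1.39, adjusted p 1.29e-04). Of 12 secretory and goblet transcription factors, 10 fell and none rose (median -2.99). Atoh1, the factor that commits cells to the secretory lineage, fell from 5642, 9208, 6471 and 6895 to 633 and 23.1 (log2 fold change -4.44, SE 0.76, adjusted p 5.87e-05), and Spdef, which drives goblet cell maturation, from 6136, 7246, 6188 and 6024 to 260.3 and 83.7 (log2 fold change -5.23, SE 0.64, adjusted p 3.35e-07). Creb3l1, a membrane-bound factor of secretory cells, fell from 26082, 33024, 25681 and 23125 to 687 and 1215 (log2 fold change -4.83, SE 0.64, adjusted p 1.30e-06), and Sox9 from 6954, 9031, 8247 and 6461 to 529.7 and 1183 (log2 fold change -3.16, SE 0.54, adjusted p 5.39e-05). Both groups were well apart in these 6 genes. The other 2, Klf4 and Sox4, did not pass, and in both EEC 1 was the lowest and EEC 2 the highest of the 6 libraries. Across other scalings, 0 to 1 of the transcription factors were higher and 8 lower. Fitted alone, the 6 libraries left 3 of the transcription factors and 5 of the deep crypt secretory genes lower.

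Of 35 genes of mucin glycosylation, 25 were lower and 1 higher, with a median log2 fold change of -2.63. Those that begin O-glycans by adding N-acetylgalactosamine included Galnt5, which fell from 4286, 6902, 4508 and 4586 to 121 and 197 (log2 fold change -4.99, SE 0.63, adjusted p 5.67e-07), and Galnt7, which fell from 13405, 18284, 14047 and 15129 to 456 and 1365 (log2 fold change -4.06, SE 0.59, adjusted p 4.65e-06), while Galnt1 and Galnt2 did not pass. The core enzymes C1galt1 and Gcnt3 fell by 2.73 and 2.93. Fut4, a fucosyltransferase, fell from 4548, 5408, 4186 and 4368 to 137 and 127 (log2 fold change -5.13, SE 0.65, adjusted p 7.06e-07), and Chst4, a sulfotransferase, from 4269, 6826, 3939.7 and 4992 to 219 and 91.0 (log2 fold change -5.02, SE 0.67, adjusted p 1.36e-06). Gne, which starts sialic acid synthesis, fell from 14368, 18959, 15679.5 and 16498 to 933 and 2305, and Nans, a later step, from 12394, 12912, 13777 and 13162 to 739 and 994. Gcnt4, a branching enzyme of low level, was the exception that rose, from 0, 14.9, 11.8 and 40.2 to 268 and 433 (log2 fold change 4.38, SE 0.76, adjusted p 6.74e-05). Under other scalings 1 to 2 were higher and 22 to 26 lower. A fit of the 6 libraries alone called 17 lower and 0 higher.

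Of 43 genes of ER folding and the unfolded protein response, 29 were lower and none higher, with a median log2 fold change of -2.29. The largest fall was that of Pdia5, a protein disulfide isomerase, from 7453, 12722, 7934 and 9712 to 128 and 179.6 (log2 fold change -5.94, SE 0.64, adjusted p 4.04e-08). Ern2, the stress sensor restricted to mucous epithelia, fell from 6857, 8995, 6986 and 7726 to 401 and 315 (log2 fold change -4.41, SE 0.54, adjusted p 4.15e-07). Hspa5 (BiP, the main ER chaperone) fell from 20515, 32898, 24669.9 and 26946 to 1763 and 4339 (log2 fold change -3.10, SE 0.56, adjusted p 1.22e-04), and the chaperone genes Hsp90b1 and Calr by 2.35 and 2.91. Xbp1, the factor whose RNA such sensors splice, fell from 4656, 6922, 5307 and 6497 to 465 and 2225 (log2 fold change -2.12, SE 0.49, adjusted p 0.0018), and Atf6 from 2368, 3471, 2835 and 2584 to 770.1 and 1087 (log2 fold change -1.60, SE 0.38, adjusted p 0.002). Other scalings left 0 to 1 higher and 27 to 33 lower. With the 6 libraries fitted alone, 17 were lower.

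Chaperone genes are known for the ER stress response element (ERSE), CCAAT and CCACG set 9 bases apart, which Atf6 and Xbp1 are known to use together with NF-Y. It was found on either strand of the promoter window for 9 of 33 ER genes with a promoter in the table and for 0.137% of 27025 genes. Of the 9, Hspa5, Hsp90b1, Dnajc3, Pdia6, Calr and Creld2 fell, while Canx, Syvn1 and Derl3 were not called. The windows of 4 that fell and 1 that did not (Canx) are shown, written along the gene's strand with CCAAT and CCACG in capitals. In Creld2 it lies on the opposite strand, so that they read CGTGG and ATTGG.
Hspa5, chr2:34772020-34772049, plus strand, element from base -65: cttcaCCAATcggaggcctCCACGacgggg
Dnajc3, chr14:118937822-118937851, plus strand, element from base -105: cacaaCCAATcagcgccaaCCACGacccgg
Pdia6, chr12:17266486-17266515, plus strand, element from base -98: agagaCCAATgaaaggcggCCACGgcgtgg
Creld2, chr15:88819515-88819544, plus strand, element from base -126: cttctCGTGGcgagcctcaATTGGtccaca
Canx, chr11:50325794-50325823, minus strand, element from base -145: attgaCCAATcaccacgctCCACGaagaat
The element was therefore present in genes on both sides of the threshold.

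Of 42 mitosis genes 41 fell (median -3.44), and Cenpa, at 333 and 83.7 against 207, 464, 270.4 and 516, was the one not called. Mki67, the proliferation marker, fell from 22162, 26627, 26584 and 27177 to 1168 and 819 (log2 fold change -4.69, SE 0.67, adjusted p 4.06e-06), and Top2a, a topoisomerase of dividing cells, from 7827, 8249, 8916 and 9301 to 304 and 107 (log2 fold change -5.39, SE 0.59, adjusted p 5.05e-08). Ccnb1 (cyclin B1) fell from 209, 333, 409 and 470.1 to 18.1 and 12.1 (log2 fold change -4.56, SE 0.66, adjusted p 4.80e-06), and Ube2c, a ubiquitin enzyme of mitotic exit, from 1075, 1578, 1348 and 1790.2 to 52.4 and 1.21 (log2 fold change -5.84, SE 0.70, adjusted p 2.38e-07). Of 43 DNA replication genes 27 fell and none rose (median -1.93, -2.98 without EEC 1 and -1.71 without EEC 2). The helicase subunit Mcm6 fell from 2586, 3419, 3332 and 4010.3 to 376 and 296 (log2 fold change -3.31, SE 0.49, adjusted p 7.18e-06) and Rpa2, a subunit of the single-strand binding complex, from 238, 196, 354 and 441 to 0 and 7.28 (log2 fold change -6.19, SE 0.80, adjusted p 7.86e-07). Background was estimated at 17.2% of the replication sum and 22.5% of the mitosis sum in EEC 1, and at 3.85% and 8.23% in EEC 2. The other scalings gave 0 of the replication genes higher and 16 to 24 lower. Across other scalings, 0 of the mitosis genes were higher and 27 to 37 lower. A fit of the 6 libraries alone called only 14 of the mitosis genes and 5 of the replication genes lower.

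Of 21 regulators of G1, the phase in which cells commit to divide or leave the cycle, 2 were higher and 7 lower, with a median of -1.29 that turned to 0.08 with TMM factors from abundant genes. A mean of at least 50 was reached by 20 of them. The number higher is near the share over all genes with such a mean, 1516 of 13188. The cyclin gene Ccnd1 fell from 2186, 3244, 1996 and 2155 to 369 and 223 (log2 fold change -3.02, SE 0.44, adjusted p 6.20e-06), and Ccnd2 from 4159.7, 3378, 4785 and 4319 to 313 and 768 (log2 fold change -2.94, SE 0.59, adjusted p 3.88e-04). Cdk4, the kinase of both cyclins, fell from 1367, 1399, 1435 and 1946 to 331 and 592 (log2 fold change -1.73, SE 0.42, adjusted p 0.0023). Cdkn1c (p57), an inhibitor of cyclin-dependent kinases, rose from 206, 170.3, 124 and 124 to 604 and 848 (log2 fold change 2.22, SE 0.38, adjusted p 5.10e-05). Cdkn1a (p21) rose by 1.97, from 96.4, 469, 192 and 324 to 197 and 1915, with EEC 1 within the SecPDG range. Cdkn1b (p27) overlapped, at 803, 1017, 1141 and 1031 and 719.5 and 1738. The call was lost for Cdkn1a without SecPDG 1, SecPDG 3, SecPDG 4 and EEC 2 (adjusted p 0.011 to 0.54). Its log2 fold change was -0.45 without EEC 2. Higher and lower members of the list came to 1 and 6 without SecPDG 1, 1 and 5 without SecPDG 3, 1 and 4 without SecPDG 4 and 1 and 8 without EEC 2. Under other scalings 3 to 4 were higher and 3 to 6 lower. With the 6 libraries fitted alone, 1 was higher and 1 lower.

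Of 47 ribosome biogenesis genes tested, 19 were lower and none higher (median -1.27, and -0.15 with TMM factors from abundant genes). Polr1c, a subunit shared by RNA polymerases I and III, fell from 539.8, 589, 539 and 629.7 to 3.62 and 52.2 (log2 fold change -4.29, SE 0.62, adjusted p 4.73e-06), and Nolc1, a nucleolar chaperone, from 2379.5, 3208, 3049 and 3042 to 698 and 820.2 (log2 fold change -1.94, SE 0.41, adjusted p 6.53e-04). Of 84 genes of cytosolic ribosomal proteins, 35 were lower and none higher (median -1.74, and -1.71 with genes at 0 in a group set to their bound), among them Rplp0, from 21083, 23359.5, 23157 and 28249 to 1607 and 5297 (log2 fold change -2.79, SE 0.62, adjusted p 0.0012). Many ribosomal protein genes have processed pseudogene copies with which reads could be shared, so single values are uncertain. Of 85 respiratory chain genes, 19 were lower and none higher (median -1.32, -1.05 without EEC 1 and -2.16 without EEC 2), among them Ndufb2, from 216, 332, 363 and 572 to 12.7 and 19.4 (log2 fold change -4.50, SE 0.64, adjusted p 3.77e-06). Members of respiratory chain genes higher and lower numbered 0 and 29 without SecPDG 2, 0 and 11 without SecPDG 3, 0 and 8 without SecPDG 4 or EEC 1 and 0 and 48 without EEC 2. Other scalings left 0 to 2 of the biogenesis genes higher and 10 to 19 lower. The other scalings gave 0 to 1 of the respiratory chain genes higher and 20 to 30 lower. Across other scalings, 0 to 1 of the ribosomal protein genes were higher and 25 to 37 lower. Only 4 biogenesis, 14 ribosomal protein and 2 respiratory chain genes were called lower in a fit of the 6 libraries alone.

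Of the signalling pathways of the crypt, the list medians of Notch (-0.03 as reported and 0.68 with TMM factors from abundant genes), Wnt (-0.51 and 0.24) and BMP, Hippo and Hedgehog (-0.04 and 1.11) turned their sign with the scaling. That of FGF and EGF was positive under each scaling (0.42 and 1.58) and turned without 1 EEC library (-0.14 without EEC 1 and -0.64 without EEC 2). Of 32 Notch genes 2 were higher and 5 lower, where 6.65% of all genes tested were higher and 8.35% lower. The number higher is thus near the share over all genes. The ligand Dll1, which secretory progenitors present to their neighbours, fell from 2556, 3088, 2514 and 2774 to 127 and 204 (log2 fold change -4.04, SE 0.48, adjusted p 2.25e-07), the receptor Notch1 from 1179.8, 1053, 1813 and 1492 to 336 and 368 (log2 fold change -1.98, SE 0.42, adjusted p 8.24e-04) and the target Hes1 from 343, 598, 545 and 667 to 28.9 and 139.5 (log2 fold change -2.65, SE 0.53, adjusted p 4.23e-04). Of 31 Wnt and stem cell genes 3 were higher, again near the share over all genes, and 7 lower. Slc12a2, a chloride cotransporter of the crypt base, fell from 22936, 30735, 24858 and 25829 to 1128 and 277 (log2 fold change -5.22, SE 0.73, adjusted p 2.82e-06), the Wnt target Axin2 from 1851, 2090, 2237 and 2438 to 671 and 781 (log2 fold change -1.57, SE 0.39, adjusted p 0.0032) and Myc from 1369.9, 1524, 1383 and 1469 to 365 and 65.5 (log2 fold change -2.75, SE 0.58, adjusted p 6.90e-04), while the corepressor Tle2 rose from 43.5, 60.9, 34.5 and 73.4 to 832 and 1285 (log2 fold change 4.32, SE 0.66, adjusted p 1.15e-05). Lgr5 did not pass, at 347 and 163 against 482, 441, 465 and 718. For Notch genes the numbers higher and lower became 2 and 8 without EEC 2. Under other scalings 4 to 9 of the Notch genes were higher and 4 to 6 lower. The counts higher and lower for Wnt and stem cell genes were 1 and 7 without SecPDG 1 or SecPDG 3 or SecPDG 4, 1 and 11 without EEC 1 and 3 and 12 without EEC 2. Other scalings left 4 to 7 of the Wnt and stem cell genes higher and 4 to 8 lower.

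BMP signals restrain growth outside the crypt base, where FGF and EGF signals promote it. Of 33 BMP, Hippo and Hedgehog genes 8 were higher and 4 lower, and 31 had a mean of at least 50. The number lower is near the share over all genes with such a mean, 1903 of 13188. Yap1 below is therefore a single member and no result for the list. Bmp2 rose from 51.1, 64.7, 68.2 and 75.4 to 1584 and 7347 (log2 fold change 6.10, SE 0.63, adjusted p 2.43e-08), and the inhibitory Smad7, itself induced by BMP and TGF-beta signals, from 329.9, 377, 278 and 381 to 869.6 and 2605 (log2 fold change 2.35, SE 0.37, adjusted p 2.14e-05). Id2, a BMP target, rose by 2.65, while Id1 overlapped (213 and 1489 against 311, 419, 307 and 315), with EEC 1 below and EEC 2 above all SecPDG libraries. Yap1, the Hippo pathway effector, fell from 938, 1539, 1359.5 and 1326 to 183 and 328 (log2 fold change -2.33, SE 0.39, adjusted p 3.85e-05), and Lats2, a kinase that restrains it, rose from 0.94, 39.8, 21.9 and 17.6 to 425 and 1124 (log2 fold change 5.28, SE 0.72, adjusted p 1.95e-06). Of 32 FGF and EGF genes 4 were higher and 4 lower, and 27 had a mean of at least 50. Both numbers are near the share over all genes with such a mean, 1516 higher and 1903 lower of 13188. The genes named next are single members and no result for the list. Fgfr1 rose by 4.94 and Errfi1, an inhibitor of the EGF receptor, by 1.96. Etv5, an ETS factor induced by FGF signals, fell from 3672, 3734, 3587 and 3450.1 to 427 and 530.2 (log2 fold change -2.91, SE 0.40, adjusted p 2.56e-06), and Lrig1, which dampens EGF receptors, from 5462, 5451, 5761 and 5353 to 472 and 894 (log2 fold change -3.01, SE 0.48, adjusted p 2.40e-05). Leaving out 1 library ended the call of Id2 without EEC 2 (adjusted p 0.035), Fgfr1 without EEC 2 (adjusted p 0.013) and Errfi1 without EEC 2 (adjusted p 0.01). Members of BMP, Hippo and Hedgehog genes higher and lower numbered 8 and 2 without SecPDG 3, 7 and 2 without SecPDG 4 and 7 and 8 without EEC 2. The other scalings gave 12 to 13 of the BMP, Hippo and Hedgehog genes higher and 1 to 3 lower. For FGF and EGF genes the numbers higher and lower became 5 and 7 without EEC 1 and 2 and 10 without EEC 2. Across other scalings, 6 to 11 of the FGF and EGF genes were higher and 3 to 6 lower.

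**Figure D4:**
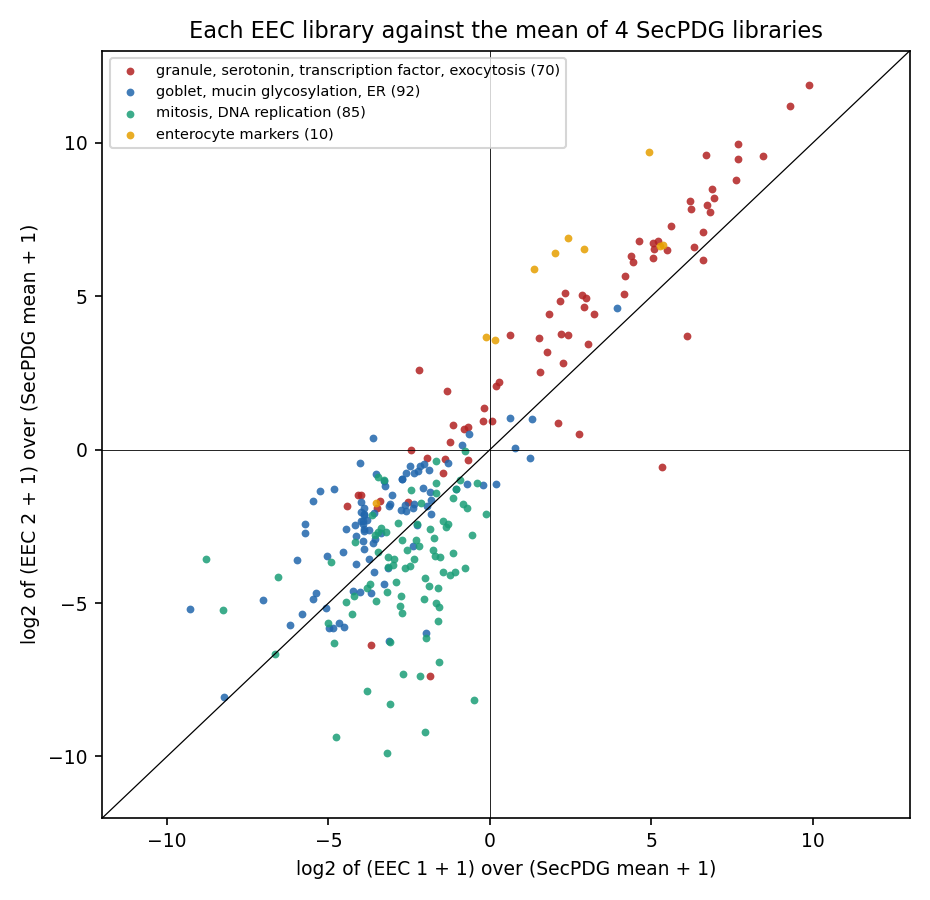
Change in EEC 1 (horizontal axis) and EEC 2 (vertical axis) against the mean of the 4 SecPDG libraries, as log2 of normalized counts plus 1, for genes of selected lists with a mean of at least 50. The line marks equal values, most granule, serotonin, transcription factor and exocytosis genes (red) lie in the upper right, goblet, ER and cell cycle genes (blue and green) in the lower left, and enterocyte markers (orange) lie above the line, as Car1 does with 3466 in EEC 1 and 79379 in EEC 2.

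Markers of other cells differed between the EEC libraries. The sum of 10 enterocyte markers was 11539 to 19184 in SecPDG, 24011 in EEC 1 and 163228 in EEC 2. Of the 10, 9 were higher and 1 was lower in EECs. Car1, a carbonic anhydrase of colonocytes, stood at 1024, 1359, 1022 and 1935 in SecPDG and 3466 and 79379 in EECs, and at 25139.5 to 47979.7 in the libraries sorted as enterocytes. The test no longer called Car1 without EEC 2 (adjusted p 0.039). Krt20, a keratin of differentiated cells, stood at 520, 239, 496 and 492 and 16892 and 43393, and at 8055 to 12343 in the enterocyte libraries. Of 11 tuft markers tested 7 were higher, with sums of 766 to 1131, 4901 and 10491, with the tuft cytokine Il25 at 0 in EEC 2. Stromal and muscle markers (10 genes, 5 higher) summed to 50.1 to 233 in SecPDG, 5074 in EEC 1 and 2376 in EEC 2. Endothelial markers (5 genes, 2 higher) summed to 92.6 to 305, 2225 and 1318, and immune markers (12 genes, 2 higher) to 65.7 to 170.2, 3108 and 585. In EEC 2, 5 of the 12 immune markers were at 0, among them Cd3g, Csf1r and Gzma. So were 3 of the 10 stromal and muscle markers, Lum and Dcn of fibroblasts and Des of muscle. The other members of both lists, and all 5 endothelial markers, were read in EEC 2. Lyz2 of myeloid cells was at 0 in EEC 1, and Cd79a of B cells was at 0 in both. Of 7 pan-epithelial markers none was called, with sums of 100966 to 152552, 31805 and 136957. Higher and lower members of pan-epithelial markers came to 0 and 4 without EEC 2. Under other scalings 0 to 1 of the pan-epithelial markers were higher and 1 to 2 lower. The part of these cells in the other results was not tested. Members of stromal and muscle markers higher and lower numbered 3 and 0 without SecPDG 3 and 2 and 0 without EEC 1. For endothelial markers the numbers higher and lower became 1 and 0 without SecPDG 1 or SecPDG 4 or EEC 1. Other scalings left 3 to 5 of the endothelial markers higher and 0 lower. No call was made for Csf1r without SecPDG 1, SecPDG 3, SecPDG 4 and EEC 1 (adjusted p 0.011 to 0.16). Higher and lower members of immune markers came to 1 and 0 without SecPDG 3 or SecPDG 4 or EEC 1. The other scalings gave 3 to 6 of the immune markers higher and 0 lower.

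**Figure D5:**
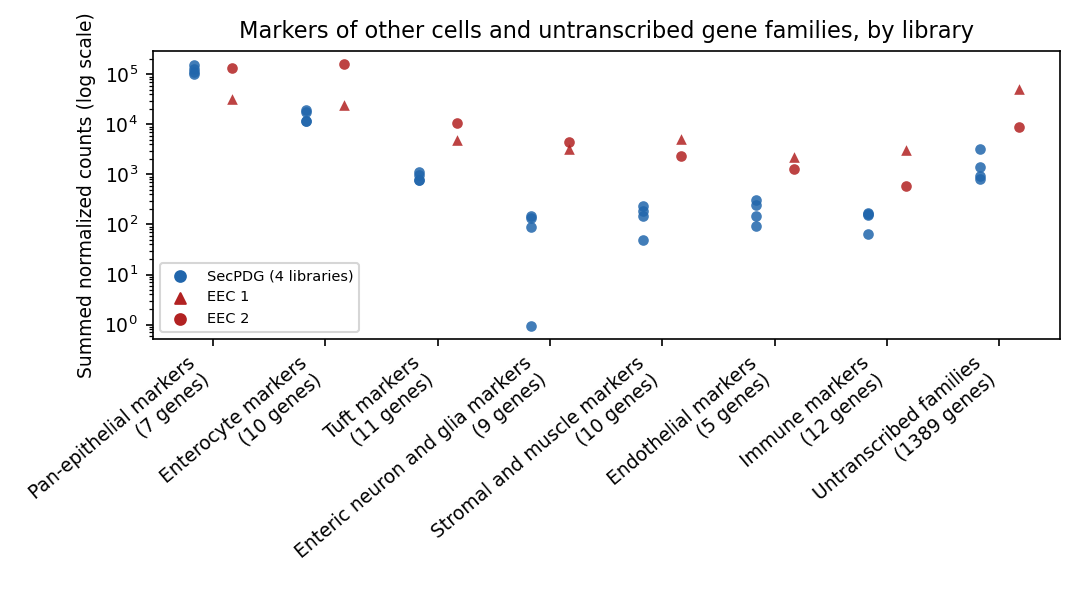
Summed normalized counts, on a log scale, of marker lists of other cell types and of untranscribed gene families in the 4 SecPDG libraries (blue), EEC 1 (red triangle) and EEC 2 (red circle). Enterocyte markers reach 163228 in EEC 2, and the untranscribed families reach 52378 in EEC 1 against 809 to 3204 in SecPDG.

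The largest fitted increases and decreases were taken among called genes that did not overlap and had under 20% estimated background, 12 in each direction. Those that rose were Iapp, Vgf, Pcsk1n, Gsdma, Wif1, 1810006J02Rik, Paupar, Aqp8, Syn1, Resp18, Ambp and Tph1. The fitted change of the 9 with over 3 reads in SecPDG was 9.24 to 11.47 on the log2 scale, while for Iapp, Vgf and Paupar, with 0 or 1 read there, the bound or ratio is given. Gsdma, a pore-forming gasdermin, stood at 0, 3.73, 0 and 6.86 in SecPDG and 1627 and 7887 in EECs (log2 fold change 10.82, SE 1.12, adjusted p 2.28e-08). Wif1, a secreted inhibitor of Wnt ligands, stood at 0.94, 3.73, 0 and 3.92 and 1262 and 3989.5 (log2 fold change 10.26, SE 1.10, adjusted p 4.03e-08), Ambp, the precursor of alpha-1-microglobulin and bikunin, at 1.89, 3.73, 0 and 2.94 and 915 and 1928 (log2 fold change 9.37, SE 0.85, adjusted p 2.76e-09), and Syn1 (synapsin I, a synaptic vesicle protein) at 0, 0, 0.84 and 8.81 and 551 and 3095 (log2 fold change 9.47, SE 1.19, adjusted p 5.44e-07). Paupar, a noncoding RNA read next to Pax6, had 1 read in SecPDG and stood at 387 and 274 in EECs, a ratio of 1300.3 (95% counting interval 232 to 51475), and since counting ignored strand its reads cannot be told apart from those of a gene on the other strand. Aqp8, a water channel and 1 of the enterocyte markers, stood at 79.5 and 2239 in EECs and 883 to 1395 in the enterocyte libraries. Leaving out 1 library ended the call of Iapp without EEC 2 (adjusted p 6.65e-05, with the mean under 50), 1810006J02Rik without EEC 2 (adjusted p 2.08e-04, with the mean under 50) and Paupar without EEC 1 and EEC 2 (adjusted p 5.03e-04, with the mean under 50).

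The 12 decreases with the largest fitted change had no read in either EEC library, so their bounds, at least 29.8-fold to at least 434-fold, set no order between them and genes with reads there. They were Hist1h2ae, Hist1h2ah, Siva1, Gng11, Stk26, Apip, Tmem203, Lipt2, Gm13212, Gins1, 2310009B15Rik and Nup35. Hist1h2ae, a histone H2A gene, stood at 713, 1094, 751 and 1227 in SecPDG, at least 434-fold higher there against a floor of 3 counts over the EEC group, and histone genes have near-identical copies among which reads could be shared. Siva1, which encodes an apoptosis-inducing protein, stood at 229, 228, 286 and 325 (at least 122-fold higher in SecPDG), Gng11, a G protein gamma subunit, at 282, 159, 276 and 292 (at least 116-fold) and Gins1, a subunit of the replicative helicase, at 58.6, 85.8, 104 and 149 (at least 45.6-fold). In all, 14 of the 1903 genes lower in EECs had no read in either EEC library. Leaving out 1 library ended the call of Gm13212 without EEC 1 and EEC 2 (adjusted p 0.015) and Nup35 without EEC 1 and EEC 2 (adjusted p 0.02 to 0.021).

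As a share of all counts on genes, which depends on transcript length, 2 granins stood out. Chgb took 4.86% of counts in EEC 1 and 5.45% in EEC 2, and Chga 2.78% and 4.5%, against at most 0.0284% and 0.00799% in a SecPDG library. The next were the noncoding RNAs Rn45s, Malat1 and Rpph1, then Tph1 (0.315% and 0.717%), Car1, Dmbt1, Krt20 and Muc2. These 10 genes held 15.9% of counts in EEC 1 and 21.3% in EEC 2. In SecPDG the top 10 were Rn45s, Muc2, Fcgbp, Clca1, Rpph1, Reg4, Pigr, Spink4, Agr2 and Myh9, with 13.3% to 23.6% of counts. Muc2 took 2.28% to 5.15% in SecPDG and 0.334% and 0.0802% in EECs. SecPDG 2 held the largest shares of Muc2, Fcgbp and Clca1 (Clca1 3.86% against 0.373% to 0.862% in the other 3 libraries).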

How the data were processed

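RNA of 22 libraries of sorted colon cells was sequenced, of which 4 SecPDG and 2 EEC libraries are compared here. According to the submitters' processing notes and the study's methods, the authors trimmed and aligned reads with STAR 2.5.2a to mm10 and counted them per gene with HTSeq 0.6.1p1 on the UCSC annotation, and the deposited values are whole-number counts per gene, not normalized. Counting did not use strand. Rows for reads outside genes or assigned to none (5 per file) were left out of library sizes and tests, and their share is given with the libraries.

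Counts were fitted with edgeR 4.0.16 in R 4.3.3 (quasi-likelihood F test, cell type as the only term, all 22 libraries, filterByExpr, TMM scaling), and the contrast was EEC minus SecPDG. Calls required 50 normalized counts or more, averaged over the 22 libraries, and a p under 0.01 after Benjamini-Hochberg adjustment. The SE is the absolute log2 fold change divided by the square root of F. Background was estimated per kilobase of exon from 1560 genes of untranscribed families. The fit was checked on simulated data. A gene with no read in a group was set against a floor of 3 counts over that group, and intervals cover counting error only. Totals of 4122122 to 18628984 counts set the precision. Replicates came from separate mice and sorts.

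The populations, gene lists and markers were chosen with earlier results of these data known. Genes named are list members with the largest or smallest change among those called, the called members of highest mean, members whose role is explained, the 12 largest fitted increases and decreases without overlap and with under 20% background, the 10 highest shares in each population, and the sorting markers. Genes named outside these rules, among them Cenpa, Klf4, Sox4, Zg16, Muc13, Tgm2 and the genes compared with the enterocyte libraries, were chosen after their values were seen. Coordinates were matched by symbol to GENCODE for 24045 of 24421 genes, and promoters to RefSeq (GRCm38.p6). Alternatives were DESeq2 1.42.0, other scalings and filters, the 6 libraries alone, thinned or background-subtracted counts, a replicate block and each library left out. The replicate numbers are not known to pair libraries across populations. Tables of splicing and other comparisons made by the authors were not used here. Values of some single genes in the lists are not reported here.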

Additional observations from a re-analysis of the deposited data

Results flagged for a closer look

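In 253 quantities with 4 SecPDG values each (the genes named above and the list sums), the gap between 1 library and the nearest of the others was compared with the range of the group by Dixon's test at the 95% level, where chance flags about 1 in 20 groups. It was exceeded in 40, of which 26 were in SecPDG 2, and these quantities are not independent of each other. The test sets the gap against the range, whatever the level, and some of these values rest on 1 or 2 reads, as for Vgf and Lyz2. The highest sum was that of SecPDG 2 for secretory and goblet transcription factors (85717), prohormone processing (31401) and nutrient and hormone receptors (7186). The lowest sum was that of SecPDG 2 for granins and granule cargo (1908). The highest sum was that of SecPDG 3 for neuronal adhesion and cytoskeleton (3781). The lowest sum was that of SecPDG 3 for immune markers (65.7). Normalized counts in SecPDG 1 stood apart, below the other SecPDG libraries, for Mki67 (22162) and Mptx1 (23767). Normalized counts in SecPDG 2 stood apart, above the other SecPDG libraries, for Bcas1 (13302), Ccnd1 (3244), Clca1 (856242), Cpd (20731), Fcgbp (912578), Galnt5 (6902), Galr1 (28.6), Id1 (419), Il25 (2.49) and Lum (4.97). SecPDG 2 also stood apart, as the highest, for Lyz2 (2.49), Myh9 (93849.5), Rab3d (12336), Sox10 (17.4), Spdef (7246), Syvn1 (2207), Trpa1 (27.4) and Vgf (1.24). Normalized counts in SecPDG 2 stood apart, below the other SecPDG libraries, for Chga (501), Chgb (1368), Gng11 (159) and Krt20 (239). Normalized counts in SecPDG 3 stood apart, below the other SecPDG libraries, for Msi1 (34.5). Normalized counts in SecPDG 4 stood apart, above the other SecPDG libraries, for Cdk4 (1946), Gcg (466), Insl5 (19.6), Lgr5 (718), Paupar (0.98), Pyy (66.6), Resp18 (14.7), S100b (1.96) and Syn1 (8.81).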

How the results depend on the processing

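Counts of genes moved with the scaling, the fit and the library left out. Against 3419 genes called (1516 higher, 1903 lower), DESeq2's own test called 6270 (4351 higher), a fit of the 6 libraries alone 940 (513 higher, 427 lower), an adjusted p under 0.05 gave 5905 (2562 higher, 3343 lower), and TMM factors from abundant genes, chosen after seeing the data, 5905 (4724 higher, 1181 lower). The number higher was 3552 with DESeq2 size factors, 3452 with library totals, 2470 with upper quartile factors, 2423 with no minimum mean and 828 with counts thinned to the smallest library. Leaving out 1 library gave 2349 to 5508 genes in all, 960 to 1591 higher and 1386 to 3917 lower, the extremes being SecPDG 4, EEC 1 and EEC 2. Of the 3419 genes, 907 (26.5%) were also called in the fit of the 6 libraries alone, 2143 (62.7%) without EEC 1 and 2743 (80.2%) without EEC 2. The replicate block called 2705 genes (983 higher, 1722 lower), 2637 of them among the 3419. The deviations of libraries with the same number correlated at -0.184 and -0.304. With 2 EEC libraries, the deviations of EEC 1 and EEC 2 from their mean are exact opposites, so this could not show whether numbers pair. No label ties a number to a shared animal or batch. The cause of the differences between the EEC libraries was not tested. Background in EEC 1 limits genes of low level. The log2 fold change of a named gene turned its sign for Cenpa (0.24) and Klf4 (0.29) under DESeq2's own test, Cenpa (0.25) and Klf4 (0.29) under DESeq2 size factors, Cd24a (0.20), Cenpa (0.65), Ffar2 (0.057), Klf4 (0.47), Lgr5 (0.23) and Tgm2 (0.098) under TMM factors from abundant genes, Il25 (-1.63), Lum (-2.89) and Trpa1 (-5.48) under background subtracted, Cenpa (0.0024) and Klf4 (0.14) under a fit of the 6 libraries alone, Foxa1 (-0.044) under no filter on low counts, Cenpa (0.27) and Klf4 (0.21) under library totals, Klf4 (0.0020) under thinning to the smallest library and Klf4 (0.051) under upper quartile factors. Over the fits that leave out 1 library, a change of sign occurred for Cck -5.91 to 4.82, Cd3g -5.42 to 6.14, Cdkn1a -0.45 to 2.69, Cdkn1b -0.47 to 0.59, Csf1r -5.86 to 6.25, Dcn 0.00 to 8.12, Derl3 -6.32 to 3.33, Des -5.72 to 5.18, Dmbt1 -3.48 to 1.02, Foxa1 -0.82 to 0.44, Gzma -6.12 to 5.60, Id1 -0.67 to 1.94, Il25 -2.45 to 4.79, Insl5 -5.54 to 5.23, Klf4 -2.04 to 0.45, Lum -3.33 to 5.11, Lyz2 -2.45 to 5.13, Maoa -2.22 to 2.37, Nts -0.88 to 5.22, Pcsk1 -0.20 to 1.14, S100b -2.37 to 7.85, Scg2 -5.66 to 4.12, Sox10 -5.22 to 6.58, Sox4 -1.07 to 1.09 and Trpa1 -0.16 to 7.34.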
